A study of Mus musculus with 21 samples.

Results

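The genes described here are 10 members of the fibroblast growth factor (FGF) and ERK pathway in mouse embryonic stem cells (ESCs) that lack the RNA helicase DDX6. They are the ligand *Fgf2*, the receptors *Fgfr1* and *Fgfr2*, the feedback inhibitors *Spry2*, *Spry4*, *Spred1*, *Dusp4* and *Dusp6*, and the transcription factors *Etv4* and *Etv5*. They were taken by symbol from the 51559 genes of the count table, and all 10 were found. *Fgf2* was chosen by its nascent RNA, which rose in the knockout, so its nascent values, and its total RNA values from the same cultures, are given below as a description without a test.

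The study labelled newly made RNA with 4-thiouridine (4sU, 500 µM for 30 min), split the extracted RNA, and sequenced the labelled and the total RNA of 7 cultures, giving 14 libraries. The cultures were 3 of wild type and 4 of *Ddx6* KO, which came from 2 clones with 2 cultures apiece. The clones were made with CRISPR from the V6.5 line, sorted for GFP from the Cas9 plasmid and picked at clonal density, and carry an insertion of 1 base and a larger deletion at the start of exon 7. All cultures, wild type included, were described as grown with serum, LIF and 2i, that is CHIR99021, a GSK3 inhibitor, and PD0325901, an inhibitor of MEK, the kinase that activates ERK. The labels number the cultures as replicates without saying how they were separated, so the p values measure the spread between these samples. ERK activity was not measured, and every value below is an RNA level.

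FGFs bind receptor tyrosine kinases, which pass the signal through RAS, RAF and MEK to the kinase ERK. In mouse ESCs this pathway, driven mainly by FGF4, promotes the exit from naive pluripotency, and blocking MEK helps to hold the cells in the naive state. Active ERK switches on its own inhibitors, which is why transcripts of the Sprouty and Dusp families and of *Etv4* and *Etv5* are widely used as a readout of the pathway. DDX6 joins mRNAs to the decapping and deadenylation machinery and to the proteins through which miRNAs act.

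Library totals ranged from 2441639 to 3570192 counts in 4sU and from 5724179 to 7369651 in total RNA. Levels are given as counts scaled to the library total (CPM). Fold changes and p values come from edgeR after TMM scaling, whose factors were 0.925 to 0.942 in wild type and 1.03 to 1.07 in *Ddx6* KO, so a fold change is lower than the ratio of the CPM values. *Ddx6* itself had 345 ± 26.7 CPM in wild-type total RNA (SD, n = 3) and 44.2 ± 24.7 in *Ddx6* KO (SD, n = 4). All 10 ESC markers examined passed the filter on low counts, and 4 of them were higher and 3 lower in total RNA of *Ddx6* KO. Of all genes tested, 19.5% were higher and 31.0% lower there. Tests covered the 14518 genes that reached 3 CPM in 3 or more libraries, and a gene passed at a Benjamini-Hochberg adjusted p below 0.05. All 10 members were tested, of which *Fgf2* met the filter through *Ddx6* KO libraries alone.

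Of the 9 members other than *Fgf2*, 4 rose and 3 fell in nascent RNA of *Ddx6* KO. *Spry4*, *Etv4*, *Dusp6* and *Spred1* rose, while *Spry2*, *Etv5* and *Fgfr1* fell. Over all genes tested, 20.6% were higher and 21.0% lower at the same threshold. The same 4 genes rose and the same 3 fell in total RNA, where 19.5% of all genes were higher and 31.0% lower. The Sprouty pair and the Etv pair each split, with *Spry4* and *Etv4* higher and *Spry2* and *Etv5* lower. The median log2 fold change of the 9 members was 0.57 in nascent RNA and 0.30 in total RNA, against 0.00 and -0.10 over all genes. The split of all genes depended on the scaling. In total RNA, 2829 genes were higher and 4498 lower, and TMM within each assay gave 3606 and 3495. In nascent RNA, 2984 were higher and 3050 lower, and scaling by library size alone gave 5285 and 1838, with the median of all genes at 0.21. The directions of the 7 members that passed were the same under each scaling tried.

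**Figure D1:**
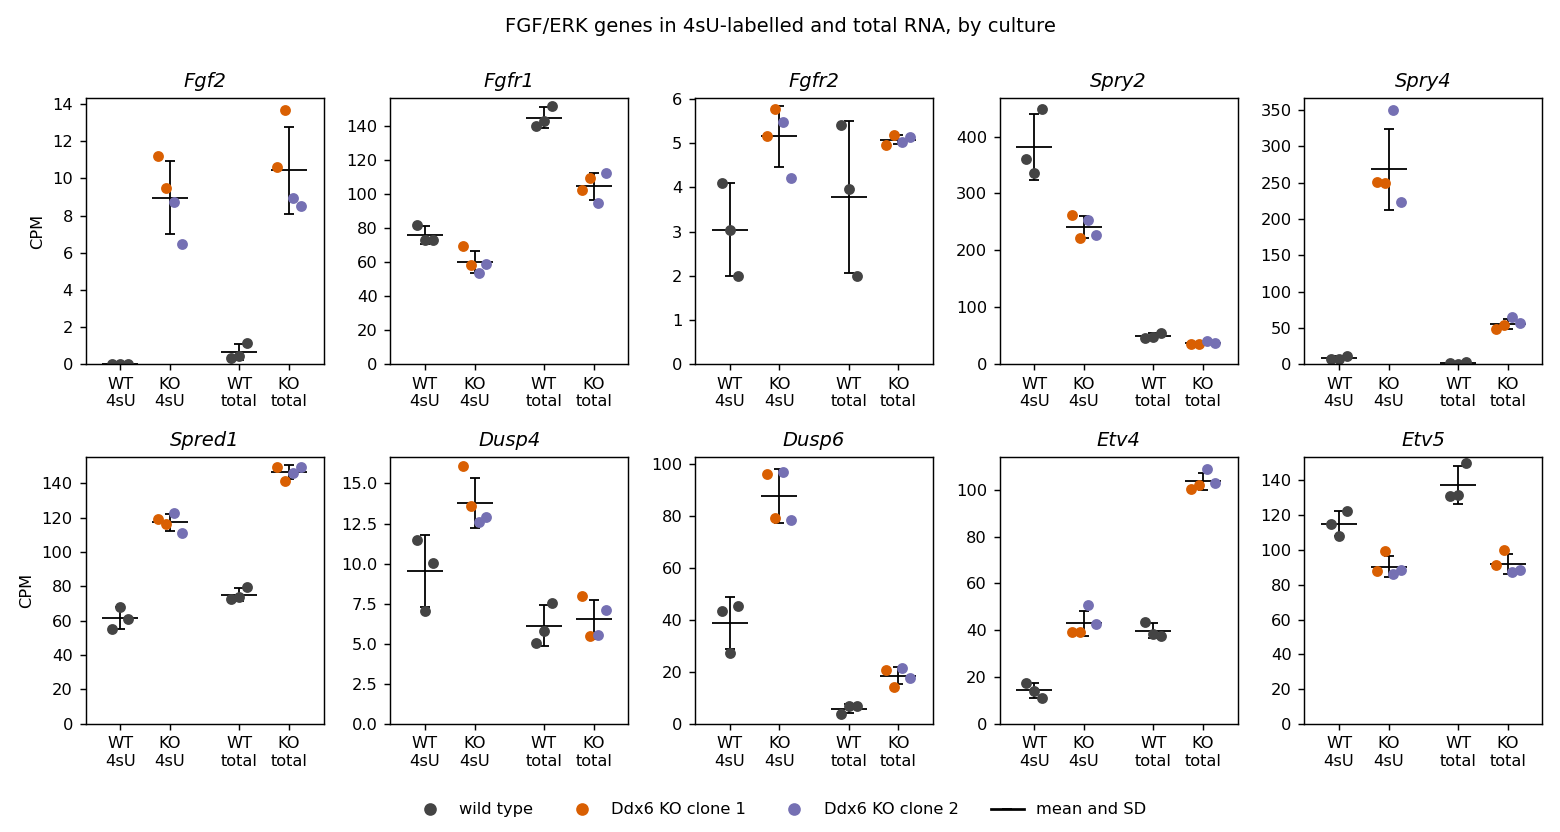
CPM of each of the 10 genes on a linear axis from 0, in 4sU-labelled and total RNA of wild type (WT) and *Ddx6* KO, with 1 point per culture and bars for the mean and SD. *Fgf2* has no reads in the wild-type 4sU libraries, *Spry4* in *Ddx6* KO lies far above wild type in both assays, and *Spry2* and *Etv5* lie below it.

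*Fgf2* (ENSMUSG00000037225, chr3:37348346-37410108, plus strand, mm10) encodes a secreted growth factor. In the 4sU libraries it had 0 counts in each of the 3 wild-type cultures. The KO cultures had 37 and 28 counts in clone 1 and 27 and 23 in clone 2, or 11.2, 9.51, 8.71 and 6.44 CPM. Every KO culture thus had labelled *Fgf2* RNA, and both sequencing runs of each KO library contributed to it, with 12 to 25 counts from the single-end run and 5 to 12 from the re-sequencing run. With a floor of 3 counts per library, which is 1.23 CPM in the smallest wild-type library, the KO mean of 8.97 ± 1.99 CPM (SD, n = 4) was at least 7.30-fold higher. Floors and counting intervals cover counting error only.

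In total RNA, wild-type cultures had 2, 3 and 8 *Fgf2* counts, and KO cultures 64 and 100 in clone 1 and 66 and 53 in clone 2. All 4 KO cultures lay above all 3 wild-type cultures, at 8.52 to 13.7 CPM against 0.349 to 1.14. The ratio of the summed counts, scaled to the library totals, was 15.6 with an exact 95% counting interval of 8.97 to 29.6. That interval pools the cultures and leaves out the spread between them. The fitted log2 difference was 3.76, and 4.45 without wild-type replicate 3, which held 8 of the 13 wild-type counts. These libraries come from the same cultures as the 4sU libraries by which *Fgf2* was chosen, and it met the filter on low counts through KO libraries alone, so no test is given.

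*Nudt6* (chr3:37404910-37420211) overlaps the 3′ end of *Fgf2* on the minus strand. The kit marks strand and the counting was set to use it. *Nudt6* had 3.66 ± 0.89 CPM in wild-type 4sU RNA (SD, n = 3) and 4.96 ± 1.03 in KO (SD, n = 4), and 1.44 ± 0.58 and 1.49 ± 0.46 in total RNA. Neither difference passed the test, with adjusted p values of 0.663 and 0.939, and the values of the groups overlapped in both assays.

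Fibroblasts, on which ESCs are often grown, also make FGF2. The summed level of 10 fibroblast markers in total RNA was 21.3 to 23.7 CPM in wild type and 53.7 to 58.5 CPM in KO. Of these, *Col1a2*, *Col3a1*, *Postn*, *Lum* and *Dcn* stayed under 1 CPM in every library. Of the 5 tested in total RNA, *Fbn1*, *Thy1* and *Col1a1* were higher, *Pdgfrb* was lower and *Twist1* did not pass. Over all genes tested, 19.5% were higher and 31.0% lower. *Thy1* and *Col1a1* were low in wild type, at 2.37 and 2.17 mean CPM. *Fbn1* rose from 7.35 to 36.5 mean CPM, the largest change among these markers. In bulk RNA, more cells of a type and more RNA per cell cannot be told apart.

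Across the 14 libraries, the genes whose log2 level was most like that of *Fgf2* were *Tcf12* (Pearson's r = 0.985), *Smarcad1* (0.984) and *Tmod2* (0.979). These correlations are descriptions, since the points share cultures and fall into the wild-type and KO groups. *Tcf12* went from 67.1 to 119 mean CPM in total RNA, *Smarcad1* from 277 to 470.4 and *Tmod2* from 16.9 to 36.0.

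*Fgfr1* (chr8:25518759-25575718, plus strand), the main FGF receptor of naive ESCs, was lower in KO. Its 4sU level was 72.9 to 81.9 CPM in wild type and 53.9 to 69.2 in KO, and its total level 140 to 152 and 94.4 to 112 CPM. The groups did not overlap in either assay. The log2 fold change was -0.53 in nascent RNA (SE 0.09, adjusted p = 3.5e-06) and -0.63 in total RNA (SE 0.07, adjusted p = 6.1e-12).

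*Fgfr2* (chr7:130162451-133123350, minus strand), a second receptor with low expression here, had 3.04 ± 1.04 CPM in wild-type 4sU RNA (SD, n = 3) and 5.15 ± 0.68 in KO (SD, n = 4). In total RNA it had 3.79 ± 1.72 and 5.08 ± 0.10 CPM. Only 6 to 17 counts per 4sU library and 14 to 38 per total RNA library stood behind these values. Neither change passed the test, with log2 fold changes of 0.57 (95% interval -0.16 to 1.30) in nascent RNA and 0.30 (-0.22 to 0.81) in total RNA and adjusted p values of 0.221 and 0.359.

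The Sprouty proteins and their relatives, the SPREDs, restrain the step from the receptor through RAS to RAF. *Spry4* (chr18:38586268-38601268, minus strand) had the largest change of the 10 in total RNA. In 4sU RNA, wild-type cultures had 7.37, 6.73 and 11.7 CPM, and KO cultures had 251 and 249 in clone 1 and 349.6 and 224 in clone 2. Total RNA held 1.22, 0.916 and 2.42 CPM in wild type and 48.4, 53.5, 64.9 and 56.3 CPM in KO. The lowest KO culture was thus far above the highest wild-type culture in both assays. The log2 fold change was 4.74 in nascent RNA (SE 0.27, adjusted p = 3.1e-08) and 4.99 in total RNA (SE 0.35, adjusted p = 1.7e-07), which is 26.7-fold and 31.8-fold. Among all genes tested these changes had ranks 11 and 7 from the top.

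*Spry2* (chr14:105891949-105896819, minus strand) went the other way. Its 4sU level was 360.4, 337 and 448 CPM in wild type and 262, 222, 253 and 227 in KO. Its total level was 45.6, 47.8 and 55.1 CPM in wild type and 35.1, 35.6, 40.7 and 36.8 in KO. Each KO culture lay below each wild-type culture in both assays. The log2 fold changes were -0.87 (SE 0.08, adjusted p = 2.5e-12) and -0.58 (SE 0.10, adjusted p = 4.6e-06). In wild type *Spry2* far outnumbered *Spry4* per length of transcript, at 23.7 against 0.331 CPM per kb of total RNA, and in KO the values were 17.8 and 12.2 CPM per kb.

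*Spred1* (chr2:117121374-117182279, plus strand) rose with little spread. Its 4sU level was 55.3 to 67.9 CPM in wild type and 111 to 123 in KO, and its total level 72.5 to 79.5 and 141 to 149 CPM. The groups stood well apart. The log2 fold changes were 0.72 (SE 0.08, adjusted p = 2.2e-10) and 0.80 (SE 0.07, adjusted p = 1.3e-15).

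DUSP6 removes the activating phosphates from ERK in the cytoplasm, and DUSP4 acts on MAP kinases in the nucleus. *Dusp6* (chr10:99263231-99267489, plus strand) had 43.4, 27.2 and 45.5 CPM in wild-type 4sU RNA and 96.1, 79.1, 97.1 and 78.7 in KO. In total RNA it had 3.84, 6.72 and 6.97 CPM in wild type and 20.9, 14.3, 21.4 and 17.5 in KO. The groups did not overlap in either assay. Its log2 fold change was 0.98 (SE 0.15, adjusted p = 1.3e-05) in nascent and 1.48 (SE 0.21, adjusted p = 2.4e-06) in total RNA.

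*Dusp4* (chr8:34807297-34819894, plus strand) did not pass the test in either assay. Its 4sU level was 7.06 to 11.5 CPM in wild type and 12.6 to 16.1 in KO, with a log2 change of 0.34 after scaling (95% interval -0.10 to 0.78, adjusted p = 0.226). Its total level overlapped between the groups, at 5.07 to 7.54 and 5.46 to 7.95 CPM, with a log2 change of -0.10 (-0.50 to 0.31, adjusted p = 0.719). With scaling by library size alone, the nascent change was 0.55 and passed (adjusted p = 0.0374).

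ETV4 and ETV5 are ETS-family transcription factors induced by FGF signalling. *Etv4* (chr11:101769742-101785371, minus strand) had 17.6, 14.1 and 11.03 CPM in wild-type 4sU RNA and 39.4, 39.0, 50.6 and 42.6 in KO. Its total level was 43.5, 38.3 and 37.7 CPM in wild type and 101, 102, 109 and 103 in KO. Every KO value was above every wild-type value in both assays. The log2 fold changes were 1.40 (SE 0.15, adjusted p = 4.7e-12) and 1.23 (SE 0.08, adjusted p = 6.4e-19).

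*Etv5* (chr16:22381309-22439719, minus strand) fell. Its 4sU level was 115, 108 and 122 CPM in wild type and 87.7, 99.5, 86.1 and 88.2 in KO, and its total level was 131, 131 and 150.1 CPM in wild type and 91.6, 99.97, 87.1 and 88.6 in KO. The KO cultures lay below the wild-type cultures in both assays. The log2 fold changes were -0.55 (SE 0.08, adjusted p = 8.9e-08) and -0.74 (SE 0.07, adjusted p = 2.7e-14).

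With the added requirement of an absolute log2 fold change above 1, *Spry4* and *Etv4* were called in nascent RNA and *Spry4*, *Etv4* and *Dusp6* in total RNA, all of them higher. Over all genes, 5.13% and 5.28% were called higher in these comparisons.

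**Figure D2:**
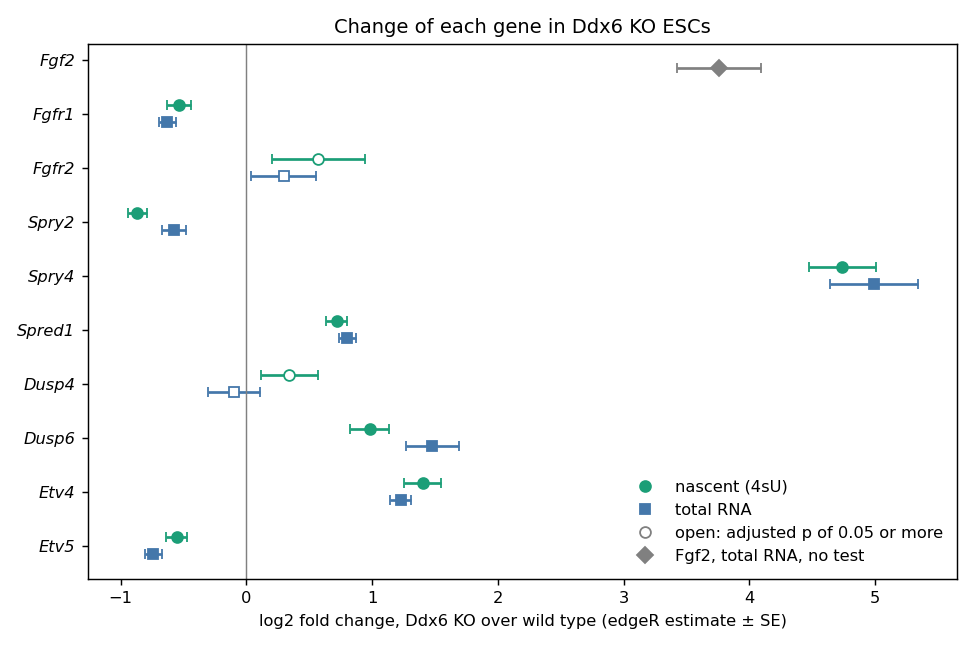
Log2 fold change of each gene in *Ddx6* KO over wild type, with its SE, in nascent RNA (circles) and total RNA (squares), where open symbols did not pass the test. The total RNA estimate of *Fgf2* is a grey diamond, given without a test, and its nascent change, which chose the gene, is left out. *Spry4* stands at 4.74 and 4.99, and *Spry2*, *Etv5* and *Fgfr1* lie left of 0 in both assays.

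The order of the levels per kb of transcript in total RNA differed between the genotypes. In wild type, *Etv5* led with 34.1 ± 2.69 CPM per kb (SD, n = 3), followed by *Fgfr1* with 27.7, *Spry2* with 23.7, *Etv4* with 16.6 and *Spred1* with 11.1. Then came *Dusp4* with 2.24, *Dusp6* with 2.09, *Fgfr2* with 0.741, *Spry4* with 0.331 and *Fgf2* with 0.0994. Of these neighbours, the ranges of *Dusp4* and *Dusp6* and those of *Fgfr2* and *Spry4* overlapped. In KO, *Etv4* led with 43.2 ± 1.54 CPM per kb (SD, n = 4). *Etv5* with 22.8, *Spred1* with 21.6, *Fgfr1* with 20.03 and *Spry2* with 17.8 followed, each overlapping the next. *Spry4* with 12.2 and *Dusp6* with 6.63 were apart from their neighbours. At the low end, *Dusp4* with 2.38 overlapped *Fgf2* with 1.60, and *Fgfr2* came last with 0.993.

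The ratio of total to 4sU RNA is a relative measure of mRNA stability, since it sets the amount present against the amount made during the pulse. Ratios are given as log2 after TMM scaling with 0.5 CPM added, and have meaning only relative to other genes of the same libraries. In wild type, 3 feedback inhibitors had low ratios, with -2.94 ± 0.11 (SD, n = 3) for *Spry2*, -2.65 ± 0.70 for *Dusp6* and -2.24 ± 0.16 for *Spry4*. These values were above those of only 5.39%, 7.77% and 11.8% of the genes tested. The *Spry4* ratio differed between the 4sU runs, at -2.55 with the single-end run alone and -1.41 with the re-sequencing run alone, in which its wild-type libraries held 2 to 9 counts. *Etv4* lay at the other end, with 1.46 ± 0.24 and above 89.9% of genes. *Fgfr1* had 0.91 ± 0.16, and *Spred1*, *Etv5* and *Fgfr2* had 0.28, 0.24 and 0.22, near the median of 0.07 over all genes. *Dusp4* had -0.60 ± 0.46. No ratio is given for *Fgf2* in wild type, where its 4sU counts were 0, and in KO it had 0.24 ± 0.26 (SD, n = 4).

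None of the 9 members other than *Fgf2* passed the test of changed mRNA stability, which is the interaction of genotype and assay in edgeR, and 1, *Spry2*, had an unadjusted p below 0.05. DESeq2 and limma-voom also found 0. Over all genes, 3.79% were higher and 8.58% lower in stability at the same threshold. The median over the 9 members was -0.09, which is also the median over all genes. *Spry4*, with the largest change in RNA level, had a stability log2 fold change of 0.25 with a wide interval from -0.99 to 1.50 (adjusted p = 0.866). The ratio was -2.23, -2.40 and -2.08 in its wild-type cultures and between -2.37 and -1.96 in KO. The intervals were narrower for *Spred1*, at 0.08 (-0.13 to 0.30), *Fgfr1*, at -0.09 (-0.32 to 0.13), and *Etv4*, at -0.18 (-0.52 to 0.17).

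*Spry2* had ratios of -2.99, -2.82 and -3.01 in wild type and -2.84, -2.60, -2.57 and -2.58 in KO, and the ranges overlapped. Its stability log2 fold change was 0.29 (SE 0.12, adjusted p = 0.120). Since both libraries of a culture come from the same extracted RNA, a fit with the culture as a replicate block was also made, and there the change was 0.29 and passed (adjusted p = 0.0355). It also passed with TMM within each assay, at 0.38 (adjusted p = 0.0371).

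*Dusp6* had the largest stability estimate of the 9, at 0.50 (SE 0.27, adjusted p = 0.267). Its wild-type ratios were spread, at -3.37, -1.96 and -2.63, and those in KO were -2.14, -2.40, -2.10 and -2.11. Without wild-type replicate 2, the culture with the highest wild-type ratio, the estimate was 0.80 and passed (adjusted p = 0.0492). The ratios of *Etv5* were 0.17 to 0.29 in wild type and 0.03 to 0.10 in KO, and its change of -0.19 did not pass (adjusted p = 0.271).

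**Figure D3:**
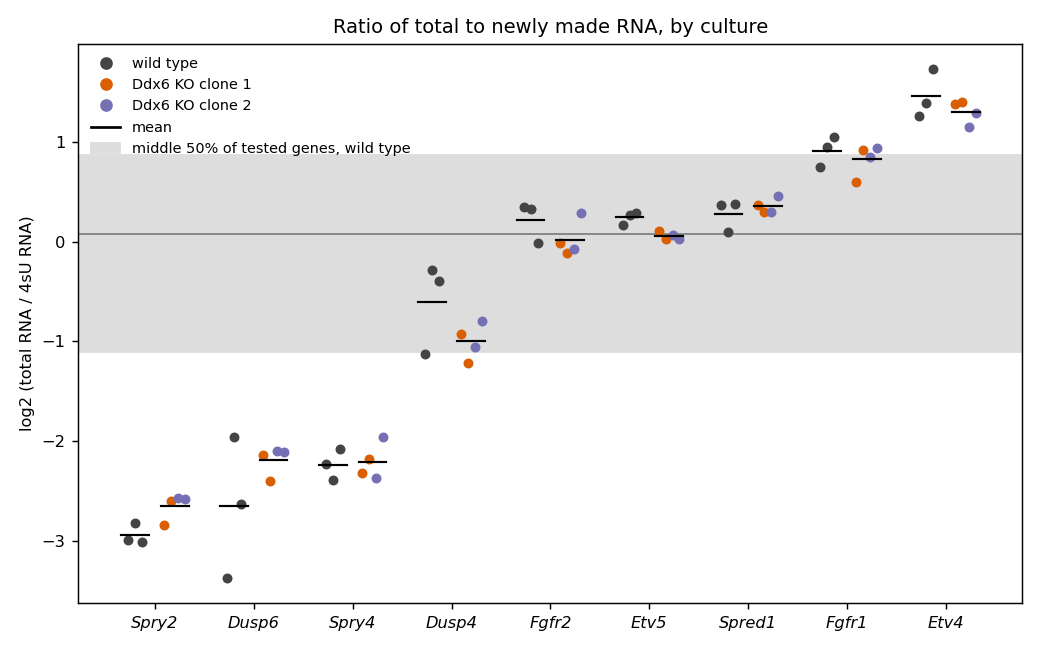
Log2 ratio of total to 4sU RNA for the 9 genes with reads in all libraries, ordered by their wild-type mean, with 1 point per culture, lines for group means, and the middle 50% of tested genes in wild type shaded around their median. *Spry2*, *Dusp6* and *Spry4* lie below the shaded range. *Etv4* lies above it, and the wild-type mean of *Fgfr1* lies just above its upper edge. Wild-type and KO points of a gene lie close to each other except in *Dusp6* and *Dusp4*.

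The 2 clones were compared with each other for each of the 10 genes. No member differed between clones in nascent RNA, total RNA or stability in edgeR, and no unadjusted p was below 0.05. DESeq2 and limma-voom also found 0 in nascent and total RNA. Over all genes, 0.172%, 0.296% and 0.00689% passed in these comparisons. Among the members, the log2 difference of clone 2 over clone 1 ranged from -0.47 to 0.24 in nascent RNA and from -0.48 to 0.25 in total RNA. *Fgf2* had the lowest value in both. Without the second culture of clone 2, *Spry4* passed in nascent RNA, at 0.48 (adjusted p = 0.0484). *Ddx6* itself did differ, at 59.6 and 70.7 CPM in total RNA of clone 1 and 23.9 and 22.5 in clone 2.

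DDX6 is known to act with miRNAs, and AU-rich elements in 3′ UTRs are known to mark short-lived mRNAs, so the 3′ UTRs of the 10 genes were searched for both. For each gene the principal transcript of GENCODE M21 (GRCm38) was read on its own strand. The AU-rich motif TATTTAT was found in *Fgf2* (2 times in 5311 bases), *Spry2* (2 in 856), *Spry4* (4 in 3559), *Spred1* (3 in 4330) and *Etv5* (1 in 2161), and not in the other 5. Among the 11951 tested genes that code for protein and have a 3′ UTR, 28.8% held it and 9.87% held it 2 times or more. Their median 3′ UTR was 1037 bases, and the shares were not matched for length. The 3′ UTRs of *Fgf2*, *Spred1* and *Spry4* were longer than 96.9%, 94.3% and 90.4% of these. Those of *Etv5* and *Spry2* were longer than 76.0% and 43.2%. These sites are printed for *Spry2*, whose ratio of total to 4sU RNA was the lowest of the 9, and for *Fgf2*, with the motif in capitals.
Spry2, chr14:105892095-105892117, minus strand: gtaaagaaTATTTATttgaagtt
Spry2, chr14:105892056-105892078, minus strand: aaaaagaaTATTTATtttaagag
Fgf2, chr3:37407743-37407765, plus strand: ttaactagTATTTATttaccaga
Fgf2, chr3:37409127-37409149, plus strand: ctaaaaatTATTTATctaaaaat
*Dusp6* had a ratio nearly as low as that of *Spry2* and no such motif in its 1189 bases.

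The main miRNAs of mouse ESCs share the seed of miR-294, whose bases 2 to 8 are in capitals below. The motif AGCACTT, which pairs with this seed, was found 1 time in *Spred1* and in none of the other 9, against 16.5% of the tested genes. The shorter GCACTT, contained in it, was found 2 times each in *Spred1* and *Spry4* and in 31.6% of genes. Neither share was matched for 3′ UTR length. The site in *Spred1* is printed beside the miRNA because *Spred1* was the only member with it. The miRNA is from RefSeq (GRCm38.p6).
mmu-miR-294-3p: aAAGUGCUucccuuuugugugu
Spred1, chr2:117180873-117180895, plus strand: agaattgaAGCACTTtttcctta
The stability of *Spred1* did not pass the test, and a matching stretch of letters is a description, not a site in use.

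The other genes of the pathway were read from lists of ligands, receptors and co-receptors, signalling chain, feedback inhibitors and nuclear targets. These 67 genes overlap none of the 10, and 48 were tested. In nascent RNA 17 of the 48 were higher and 13 lower, and in total RNA 15 were higher and 14 lower, with medians of 0.11 and 0.06. The higher genes include *Fgf1* and *Spred3*, which met the filter on low counts only with KO libraries, so their part in these counts is not a test result. Over all genes tested, 20.6% were higher and 21.0% lower in nascent RNA, and 19.5% and 31.0% in total RNA. The same shares stand beside the counts of each list below. In stability 4 of the 48 were higher and 3 lower, against 3.79% and 8.58% of all genes. The 22 genes of the signalling chain between receptor and ERK were all tested. In total RNA 5 of them were higher and 8 lower, with a median of -0.05. *Frs3*, an adaptor of FGF receptors, fell by 1.02 and by 1.01 on the log2 scale in nascent and total RNA. *Gab1*, the adaptor with the most reads per kb of this list, had a log2 change of 0.25 in nascent RNA and -0.04 in total RNA, of which only the first passed. In stability 3 of the 22 chain genes were lower, *Gab1* among them, at -0.29 (adjusted p = 0.0065). That call for *Gab1* was lost under 4 of 19 alternatives.

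Of 17 ligands besides *Fgf2*, 5 met the filter on low counts, and at the threshold 2 were higher and 3 lower. *Fgf1*, among the higher ones, met the filter only with KO libraries, so its change is a description and not a test result. Its wild-type libraries had 1.67 to 3.03 CPM in 4sU and 0.305 to 1.42 in total RNA. *Fgf4*, the main FGF of ESCs, had 411 ± 21.1 CPM in wild-type total RNA (SD, n = 3) and 379.6 ± 7.41 in KO (SD, n = 4), a log2 change of -0.27 (SE 0.06, adjusted p = 5.1e-05). *Fgf17* rose from 6.56 to 29.6 mean CPM in total RNA and *Fgf1* from 0.809 to 3.52. *Fgf10* fell from 6.38 to 2.13 mean CPM and *Fgf3* from 6.37 to 1.95. Their log2 fold changes in total RNA were 2.02, 1.89, -1.73 and -1.84. The value for *Fgf1* was 2.62 without wild-type replicate 3, and that for *Fgf3* was -1.19 in clone 1 alone and -2.95 in clone 2 alone. In KO, *Fgf2* reached a level per kb of 1.60 CPM, while *Fgf4* stood at 125. Of 5 receptors and co-receptors, 2 were tested. *Klb* was lower in total RNA, at 6.12 mean CPM in wild type and 4.73 in KO. Its log2 change of -0.52 (SE 0.22) passed close to the threshold (adjusted p = 0.0478). *Fgfrl1*, the highest of the list per kb, did not pass.

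Of 8 further feedback inhibitors, 7 were tested. In nascent RNA 2 were higher and 3 lower, and in total RNA 1 was higher, *Spred3*, and 1 lower, *Spry1*. *Spred3* met the filter on low counts only with KO libraries, so its place in these counts is a description and not a test result. Its wild-type libraries had 2.67 to 7.40 CPM in 4sU and 2.10 to 2.44 in total RNA. Its log2 change was 1.22 in nascent RNA (SE 0.27) and 2.16 in total RNA (SE 0.24). *Dusp9*, the highest of the list per kb, had -0.02 and 0.05 and passed in neither. *Spry1* was lower, as was *Spry2*, and *Spred3* was higher, as was *Spred1*.

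Of 15 nuclear targets, 12 were tested, of which 7 were higher and 2 lower in nascent RNA and 7 higher and 1 lower in total RNA. Over all genes the shares were 20.6% and 21.0% in nascent RNA and 19.5% and 31.0% in total RNA. In stability 4 of the 12 were higher, against 3.79% of all genes. Their median log2 fold change was 0.42 in nascent and 0.98 in total RNA. The immediate early gene *Egr1* had 8.07 to 18.1 CPM in wild-type 4sU RNA and 86.9 to 253 in KO, a log2 change of 3.74 (SE 0.48, adjusted p = 7.8e-05). In total RNA *Egr1* had 0.305 to 1.05 CPM in wild type and 2.73 to 6.79 in KO, and its change of 2.66 did not pass (adjusted p = 0.0904). It passed under 5 alternatives, with DESeq2 at 2.73 (adjusted p = 2.8e-05), limma-voom at 2.61 (0.0467), the replicate number as a block at 3.04 (0.00803), clone 2 alone at 2.84 (0.000424) and without the second culture of KO clone 1 at 2.90 (0.00136). *Ier3* (1.61 and 1.62), *Phlda1* (1.19 and 1.26) and *Etv1* (1.13 and 1.50) rose in nascent and total RNA by these log2 fold changes. *Ets2* rose by 0.41 and 1.14, and its stability by 0.73 (adjusted p = 2.5e-07). *Epha2*, the highest of the list per kb, fell by 0.38 on the log2 scale in nascent RNA and rose by 0.17 in total RNA, where the call was lost without wild-type replicate 1 (adjusted p = 0.187), without either culture of KO clone 1 (0.0880 and 0.0854) and in clone 2 alone (0.362). The stability of *Epha2* was higher and passed under each of 19 alternatives, at log2 fold changes of 0.47 to 0.68 (adjusted p from 8.4e-09 to 0.00382).

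**Figure D4:**
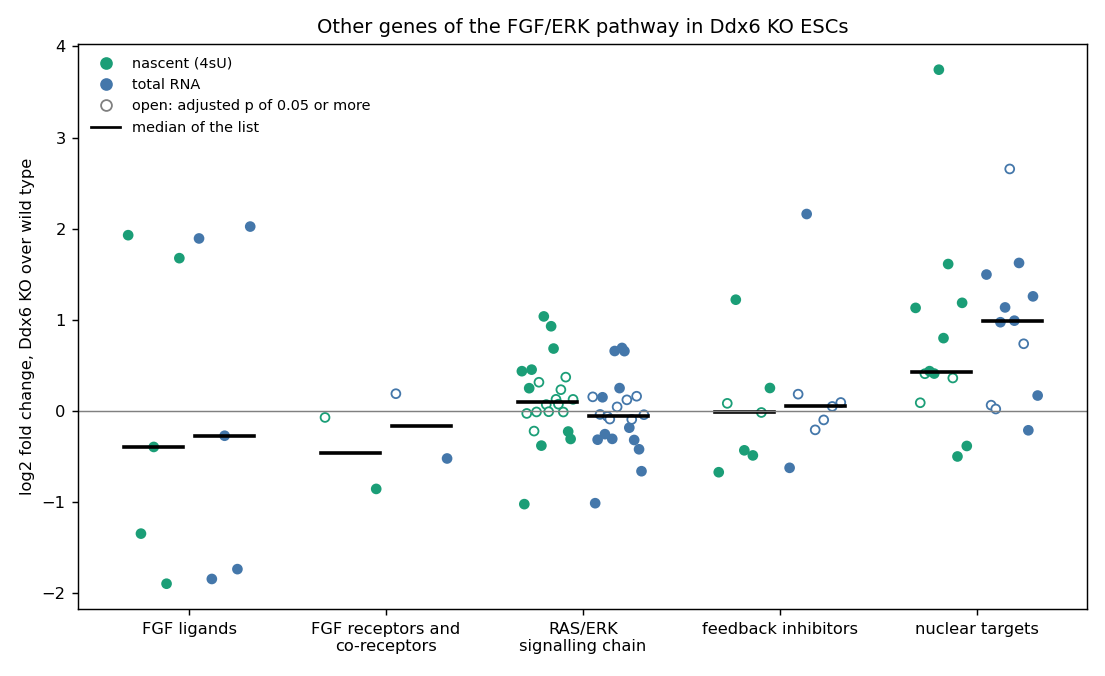
Log2 fold change of the 48 tested pathway genes outside the 10, by list, in nascent and total RNA, with 1 point per gene, open where it did not pass, and black lines for the medians. Genes of the signalling chain lie on both sides of 0, while most nuclear targets lie above it, with *Egr1* at 3.74 in nascent RNA. The points of *Fgf1* and *Spred3*, which met the filter on low counts only with KO libraries, are descriptions.

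The summed levels of markers of other cell types differed by genotype as well, but the genes of a set did not move together. In total RNA, the summed level of 10 primitive endoderm markers was 683 to 722 CPM in wild type and 763 to 841 in KO, and that of 10 trophoblast markers 96.7 to 106 and 129.9 to 147. For 9 primed epiblast markers it was 169 to 185 in wild type and 158 to 167 in KO. Of the tested markers, 3 of 6, 3 of 7 and 2 of 5 were higher and 1, 2 and 3 lower. Over all genes, 19.5% were higher and 31.0% lower. Among endoderm markers, mean CPM of *Sparc* rose from 461 to 568, while that of *Lama1* fell from 150 to 133. Among trophoblast markers, *Krt8* rose from 22.0 to 47.1 and *Krt18* from 17.3 to 30.5, while *Eomes* fell from 13.8 to 11.9. Among primed markers, *Dnmt3b* fell from 120 to 81.3, while *Zic2* rose from 23.5 to 39.6 and *Sox4* from 13.3 to 31.6. The part of these markers in the changes above was not tested.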

How the data were processed

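RNA from mouse ESCs labelled with 4sU, and total RNA after depletion of rRNA, were sequenced from stranded libraries. Per the study's methods, the authors removed adapters (Cutadapt 1.14), aligned reads to mm10 (STAR 2.5.3a, unique alignments) and counted them by gene, by strand, on Gencode M14 (featureCounts 1.5.3). The deposited values are raw counts. Counts of the single-end and the re-sequencing run of a 4sU library were summed, as the study did. The 92 spike-in rows were all 0 and were left out. Gene lengths were deposited too and served for levels per kb.

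The main test was edgeR's robust quasi-likelihood test (version 4.0.16, R 4.3.3) on counts scaled by TMM over all 14 libraries, in 1 model with genotype, assay and their interaction. A second model separated the clones. Benjamini-Hochberg adjustment ran over all genes tested in each contrast. Intervals of fold changes are normal 95% intervals from the SE. Alternatives were DESeq2 1.42.0, limma-voom (limma 3.58.1), other scalings, no filter beyond 1 count, each run, each clone, culture or replicate number as a block, and each culture left out. The code was checked on simulated counts.

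Both libraries of a culture share its extracted RNA, as the methods state. Their deviations from the group means correlated weakly across genes, at 0.00352 to 0.125. No pair of replicates agreed within sampling noise. The members and the gene lists were chosen with earlier results of these data known. The genes named are the 10, *Ddx6*, *Nudt6*, *Fgf4*, the 3 most like *Fgf2*, and from the pathway lists those called in any contrast and the most abundant of each list per kb. 1 gene that this rule names is not reported here. *Klb*, *Spry1* and the fibroblast markers were named after their values were seen, to account for small counts. The markers of other cell types were also named after their values were seen, to show which genes made up the sums.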

Additional observations from a re-analysis of the deposited data

Results flagged for a closer look

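In 30 groups of 4 KO cultures, made of the 10 genes and 3 measures, 3 had a culture far from the other 3 by Dixon's criterion, where chance alone gives about 1.5. For *Spry2*, the log2 total-to-4sU ratio was -2.84 in the first culture of clone 1, against -2.60 in the nearest other KO culture. That of *Dusp6* was -2.40 in the second culture of clone 1, against -2.14. *Etv5* had 99.5 CPM in 4sU RNA of the second culture of clone 1, against 88.2.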

How the results depend on the processing

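Counts of members other than *Fgf2* that passed were 7 of 9 in nascent RNA and 7 of 9 in total RNA. They stayed there under all alternatives but 2 kinds. *Fgf2* is left out of both, since its part was fixed by its choice. With library size alone, *Dusp4* passed too, giving 8 in nascent RNA. With an absolute log2 fold change above 1 required, the count in nascent RNA was 2. In total RNA it was 4 with *Fgf2* included, whose part is a description and not a test result. Without *Fgf2*, the genes *Spry4*, *Etv4* and *Dusp6* remained. For stability the count was 0, and 1 with TMM within each assay, with no filter beyond 1 count, with the replicate number as a replicate block and with the culture as a replicate block, each time *Spry2*, and from 0 to 1 over fits that left out a culture. Between clones it was 0, and from 0 to 1 over those fits. The paired fits changed no other call of a member, and with the number as a block *Egr1* passed in total RNA. With the number as a block, the *Fgf2* change in total RNA was 4.44. Same-numbered wild-type and KO cultures deviated together little, with correlations of -0.04 to 0.09. Over the members, no direction that passed was reversed. *Gab1* in total RNA, -0.04 and not passing, was 0.12 with library size alone and passed (adjusted p = 0.0446). In nascent RNA *Fgf3* lost its call under 8 of 18 alternatives, among them each run alone, and *Fgf4* in total RNA lost it with library size alone. The median wild-type log2 ratio of the 9 members was 0.22 and was -0.0297 with the re-sequencing run alone. In KO it was 0.02, -0.18 with that run alone and -0.0662 to 0.0675 over fits that left out a culture. The *Spry4* ratio in wild type was -2.55 from the single-end run and -1.41 from the re-sequencing run. The causes were not tested. Depth limits *Fgf2*, *Fgfr2* and wild-type *Spry4*, whose libraries held few counts.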
